A study of Homo sapiens with 18 samples.

Results

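The flexibility of 18S rRNA, the RNA of the small ribosomal subunit, was mapped in living control cells carrying a scrambled sequence (SCR). The cells were MDA-MB-231, an established human breast cancer line, and the map rests on 6 of the 18 libraries of the series, all those of SCR. Cells received the SHAPE reagent 2A3 or its solvent DMSO during 15 min at 37 °C. The 18S rRNA was then read as 3 overlapping amplicons (primer sets). Every combination of reagent and primer set is 1 library, so no value has a replicate, no test was possible, and errors after ± are the counting errors deposited with the data. The design mentions duplicate wells, but not whether a library holds 1 well or both. The libraries measured 1816 positions, some in more than 1 amplicon, which gave 2137 measurements.

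2A3 acylates the 2′-hydroxyl of the ribose, and does so fastest where a nucleotide is free to move. Nucleotides held in helices, in tertiary contacts or under ribosomal proteins react little. The small subunit folds into a 5′ domain (body), a central domain (platform), a 3′ major domain (head) and a 3′ minor domain, which holds the decoding helix h44. Its conserved core is shared by all life, and eukaryotes add expansion segments (ES3S, ES6S, ES7S, ES9S and others) that lie mostly on the solvent side.

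The signal of a position is its 2A3 reactivity minus its DMSO reactivity, in percent of reads with an event there, and both reactivities are rounded to steps of 0.1%. A position with a signal of at least 1% is called flexible here, and runs of at least 20 positions that all stay under 0.2% are called protected. These are thresholds of size and do not measure structure directly. G60 and U1248 were set aside because more than 5% of DMSO reads had an event there. Of the other 1814 positions, 154 were flexible, which is 8.49%. Helices and expansion segments were placed by hand from conserved sequence and known modified nucleotides. Their ends are approximate and were written after the flexible positions had been seen, so counts by region are descriptions.

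The sequences below are examples from each domain, chosen after their values were seen to show groups and single nucleotides described further on. Flexible nucleotides are in capitals and all others in lower case. They are given 5′ to 3′ in the letters of the deposited reference, and the pair of numbers is the first and last position shown. The label h42 at A1601 is uncertain.
C72 to U76, shown 64 to 84: acgcacggCCGGUacagugaa
A102 and A103, shown 90 to 114: gaauggcucauuAAaucaguuaugg
ES3S, U197 to C201, shown 189 to 209: ugacccccUUCGCggggggga
ES3S, C325 to U328, shown 317 to 336: cAcgccccCCGUggcggcga
h16, U540 to G547, shown 532 to 555: caggacucUUUCGagGcccuguaA
ES6S, U742 to U747, shown 734 to 755: cccgccccUUGccUcucggCgc
ES6S, C834 to C840, shown 826 to 848: aagcaggcCCGAGCCgccuggau
h23, U969, shown 957 to 981: aggugaaauucuUggaccggcgcaa
ES7S, C1109 to U1120, shown 1101 to 1128: ugcggcggCguuAUUCCcAUgacccgcc
ES9S, C1417 to C1423, shown 1409 to 1431: acgcgaccCCCGAGCggucggcg
h42, A1601, shown 1589 to 1613: accccauucgugAuggggaucgggg
h44, G1764 to A1768, shown 1756 to 1776: cggggucgGCCCAcggcccug

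The map was sparse. Signal was at or below 0 at 713 positions (39.3%), above 0 but under 0.2% at 656 (36.2%), and between 0.2% and 1% at 291. A further 121 positions lay from 1% to under 5%, 26 from 5% to under 10%, and 7 at 10% or more. The highest 5% of positions, 91 in number, held 63.1% of the summed signal, and the 154 flexible positions held 76.3%. The call is not sharp at its edge, with 15 positions at 0.9% to under 1% and 8 at 1% to under 1.1%. Flexible positions had little background, since 131 of the 154 had a DMSO reactivity of at most 0.2%, and the highest DMSO value among them was 1.1%, at G798.

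**Figure D1:**
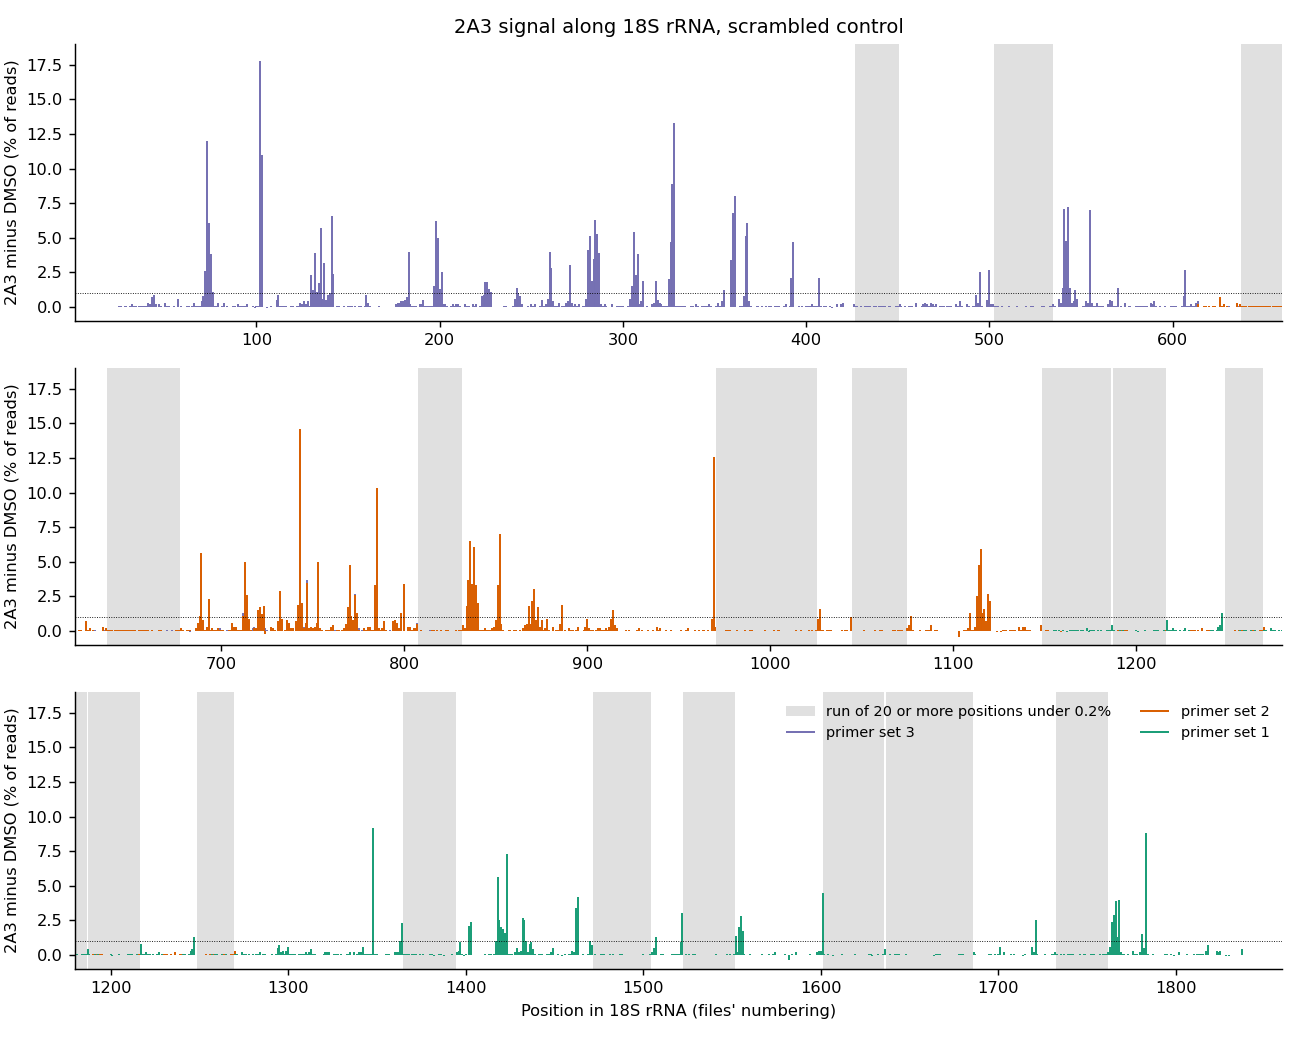
Signal (2A3 minus DMSO, percent of reads, vertical axis) at each position of 18S rRNA (horizontal axis, in 3 panels from 5′ to 3′) in the scrambled control, coloured by primer set, with the dotted line at 1% and G60 and U1248 left out. Grey bands mark the 15 protected runs, which cover 497 positions. In overlaps the later colour lies on top. Tall bars stand in narrow groups between long flat stretches, and the tallest, A102, reached 17.8%.

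Depth was even within a library. It ran from 181797 to 215160 reads per position in the 2A3 library of primer set 1, from 489930 to 508229 in that of set 2 and from 173638 to 214795 in that of set 3. The DMSO libraries held 168818 to 179847, 543941 to 552159 and 320572 to 349601 reads. The largest counting error of a flexible position was 0.0969%, at A102, and rounding adds up to 0.05% to each reactivity. These errors cover counting only, since amplified reads that carry no molecular identifier can stem from the same molecule.

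Amplicons that covered the same RNA gave similar but not equal unscaled values. At the 202 positions shared by primer sets 2 and 3 the summed signal of set 3 was 0.902 ± 0.0076 of that of set 2 (error from counting and rounding). Set 3 was thus lower by more than that error. Still, 172 positions differed by at most 0.1% of reads, and the Spearman correlation was 0.865. Set 2 called 25 of these positions flexible and set 3 called 23, and all 23 were among the 25. The largest gap was at U743, with 13.2% in set 3 and 14.6% in set 2. Across the 118 positions shared by sets 1 and 2 the ratio of summed signal was 1.096 ± 0.093, and 113 positions differed by at most 0.1%. Mean signals there were 0.0678% in set 1 and 0.0619% in set 2, below 1 rounding step, so small gaps say little. The Spearman correlation there was 0.480. Only C1247 was flexible there, at 1.3% in set 1 and 1.2% in set 2, so that overlap sets the scale less firmly. The largest gap there was at A1217, with 0.8% in set 1 and 0.1% in set 2. Amplicons share the RNA and the cells, so they are no replicates of the probing.

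**Figure D2:**
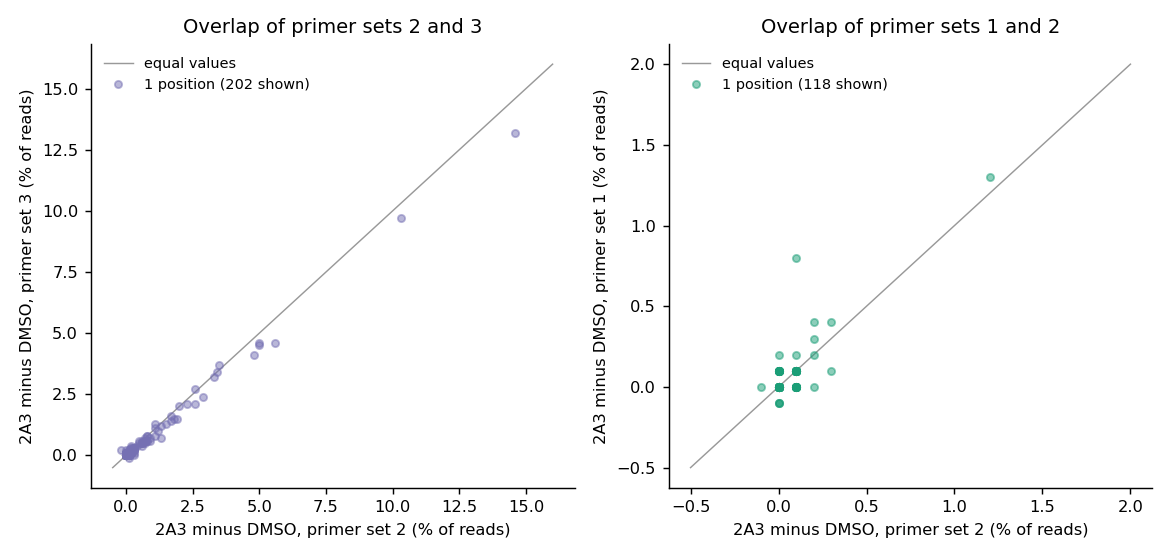
Signal (2A3 minus DMSO, percent of reads) at positions read from 2 amplicons, with primer set 2 on the horizontal axis and set 3 (left) or set 1 (right) on the vertical axis; each point is 1 position and the line marks equal values. The left panel follows the line up to U743, at 14.6% and 13.2%, while the right panel holds low values except C1247.

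The 5′ and central domains were more flexible than the 3′ domains on the unscaled values. Mean signal was 0.547% over 635 positions of the 5′ domain (up to position 660) and 0.410% over 540 positions of the central domain (up to 1200). It was 0.210% over 499 positions of the 3′ major domain (up to 1700) and 0.265% over the 140 measured positions of the 3′ minor domain. Flexible positions numbered 69 (10.9%), 51 (9.44%), 26 (5.21%) and 8 (5.71%), against 8.49% in all. The domains were read from different primer sets, and this order depends on how these are set against each other. With each primer set scaled to its own high values, the shares were 8.35%, 10.0%, 7.62% and 9.29%. That scaling also turned the ratio of summed signal in the overlaps to 0.506 and 1.92.

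Expansion segments carried most of the flexible nucleotides. ES3S, ES6S, ES7S and ES9S together made up 480 of the positions (26.5%) and held 90 of the 154 flexible ones (58.4%). Their flexible share was 18.8%, against 4.80% of the other 1334 positions. The share was also higher inside than outside within each primer set, whose values share 1 scale. Sets 2 and 3 share 202 positions, part of ES6S among them, so they are not separate there. The segment ends were written after the flexible positions had been seen, and the contrast may in part reflect that. In set 1 the counts inside and outside these segments were 12 of 48 and 22 of 637, the latter being 3.45%. The shares were 17.6% and 1.53% in set 2 and 18.3% and 7.57% in set 3. The 20 highest positions were less tied to them, with 8 inside and 12 outside.

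**Figure D3:**
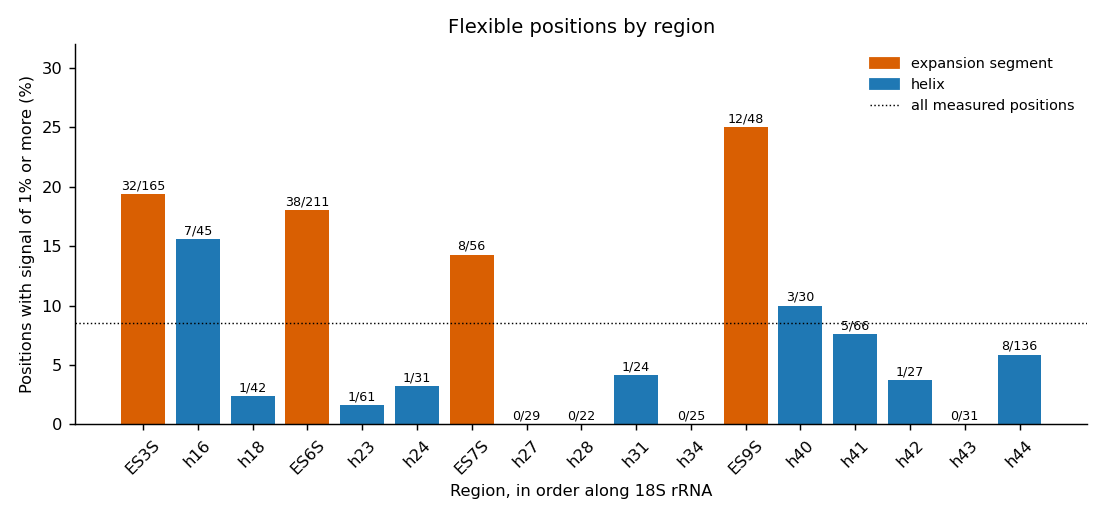
Share of positions with a signal of 1% or more (vertical axis, percent) in each helix or expansion segment placed here, in order along 18S rRNA; numbers over bars are flexible and measured positions, and the dotted line marks the 8.49% of all positions. The 4 expansion segments and h16 stand at 14.3% or more, with ES9S (12 of 48) tallest. The bars h27, h28, h34 and h43 hold no flexible position. The labels h41 (G1515 to A1580), h42 (U1586 to G1612) and h43 (A1620 to A1650) are uncertain and may not match these helices.

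In the 5′ domain the highest signal of the whole map was at A102. Its 2A3 reactivity was 17.9% ± 0.097 and its DMSO reactivity 0.1% ± 0.0054. The next nucleotide, A103, had 11.0% ± 0.076 with 2A3 and 0% with DMSO, while the flanking positions had signals of 0.1% and 0%. Flexibility was thus limited to a pair of adenosines within an otherwise quiet AU-rich stretch. Upstream, the group C72 to U76 rose to C73 and fell again. Signals were 2.6% at C72, 12.0% ± 0.080 at C73, 6.1% at G74, 3.8% at G75 and 1.1% at U76. Between G130 and C142, the longest stretch of the map, 10 of 13 positions were flexible, and the highest were A141 (6.6%), U135 (5.7%) and U132 (3.9%).

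ES3S, an expansion segment at the foot of the subunit, held 32 flexible positions of 165 (19.4%, against 10.9% of the 5′ domain). Its mean signal was 0.818%. In its 5′ hairpin, as printed, the letters UUCGC lie between a run of cytidines and a run of guanosines that can pair. All 5 were flexible, and the highest were the second and the third, with 6.3% ± 0.055 at U198 and 5.1% ± 0.049 at C199 under 2A3, and 0.1% at each under DMSO. Signals were 1.5% at U197, 1.3% at G200 and 2.5% at C201. Further on, all 7 positions from C281 to U287 were flexible, with 6.3% at U285 and 5.3% at U286. The highest value of ES3S was at U328, where 2A3 gave 13.6% ± 0.080 and DMSO 0.3% ± 0.0093. Signal climbed towards it, from 2.0% at C325 through 4.7% at C326 to 8.9% at G327. Just beyond ES3S, U359, A360 and U361 had signals of 3.4%, 6.8% and 8.0%, and U367 and U368, in a neighbouring UUUCG sequence, had 5.1% and 6.1%.

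The h16 hairpin, which projects from the shoulder near the entry of the mRNA channel, had 7 flexible positions of 45. That is 15.6%, against 10.9% of the 5′ domain, and the count is small. The loop of h16 carried 7.1% ± 0.059 at U541, 4.9% ± 0.049 at U542 and 7.4% ± 0.060 at C543 under 2A3, with DMSO values of 0%, 0.1% and 0.2%. A555, on the 3′ side of h16, had a signal of 7.0% with 0.3% on either side. The strand on the 5′ side of the loop belonged in part to a protected run of 32 positions, C503 to G534, which includes 14 adenosines and a series of 5 in a row. The conserved h18 hairpin, which lines the decoding side, had 1 flexible position of 42 (2.38%), against 10.9% of the 5′ domain. That was U607, at 2.7%. Signals under 0.2% made up 81.0% of its positions, against 69.0% of the domain. G626, a conserved guanosine of the h18 loop, had 0.7% ± 0.012 in set 2 and 0.5% ± 0.016 in set 3 under 2A3 and 0% under DMSO in both. The adjacent U627, a known 2′-O-methylation site, had 0.3% under 2A3 and 0.2% under DMSO in both sets.

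**Figure D4:**
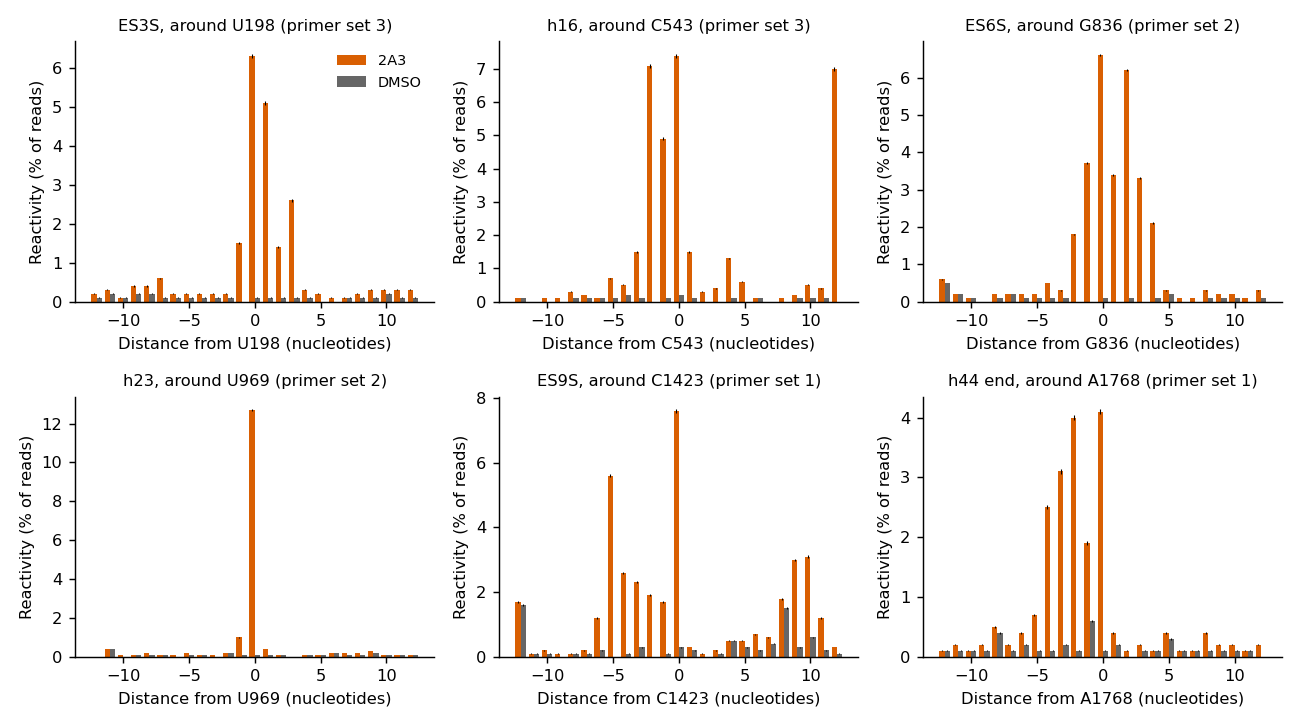
Reactivity (percent of reads, vertical axis, from 0 in each panel, with a scale of its own) with 2A3 and with DMSO at the 12 nucleotides on either side of U198, C543, G836, U969, C1423 and A1768, plotted against the distance from each; error bars are the deposited counting errors of 1 library. The groups span about 5 to 8 nucleotides in ES3S, h16, ES6S, ES9S and h44, whereas in h23 the 12.7% at U969 stands almost alone.

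In the central domain ES6S, the largest expansion segment of 18S rRNA, held 38 flexible positions of 211 and had a mean signal of 0.758%. U743 was its highest nucleotide in both primer sets that cover it, with 14.7% ± 0.054 under 2A3 in set 2 and 13.3% ± 0.083 in set 3, over 0.1% under DMSO in both. Its neighbours U742 and G744 had mean signals of 1.7% and 2.0%, so the peak was narrow. C785 had 10.5% ± 0.045 in set 2 and 9.8% ± 0.075 in set 3, over DMSO values of 0.2% and 0.1%. G784 before it had a mean signal of 3.25% and G786 after it 0.15%. All 7 positions from C834 to C840 were flexible, and this group had its maxima at G836 (6.5%) and G838 (6.1%) with 3.4% at A837 between them. G852, with 7.0%, and C851, with 3.3%, formed the last strong pair. Separating these groups, A808 to G831 was a protected run of 24 positions that starts in a stretch of adenosines.

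The core helices h23 and h24 of the platform, as placed here, had 1.64% and 3.23% of positions flexible, against 9.44% of the central domain. A signal under 0.2% was found at 55 of 61 (90.2%) and 28 of 31 positions (90.3%), against 73.7% of that domain. These regions are small, so their shares are coarse. In h23 only U969 passed the threshold among 61 positions, with 12.7% ± 0.050 under 2A3 and 0.1% ± 0.0043 under DMSO. Its neighbours had signals of 0.9% and 0.3%. The longest protected run, the 55 positions from G971 to U1025, began shortly after it, with a mean signal of 0.0291%. In the part counted as h24, A1050 to A1080, whose loop faces the mRNA and tRNA, only A1077 passed, at 1.1%. G1044, shortly before that part, also passed, at 1.0%, and may belong to the 5′ side of h24. ES7S, which extends h26, had 8 flexible positions of 56 (14.3%), against 9.44% of the central domain, and 75% of its positions were under 0.2%. All 8 lay in 1 group between C1109 and U1120, with 4.8% at U1114, 5.9% at U1115, 2.7% at A1119 and 2.2% at U1120. Of h27 and the measured 5′ strand of h28, which forms the neck, 0 of 29 and 0 of 22 positions were flexible, against 8.49% of all positions. The highest signal there was 0.3%, at G1187.

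In the 3′ major domain the highest signal was at G1348. It had 9.3% ± 0.069 under 2A3 and 0.1% ± 0.0075 under DMSO, with a signal of 0.1% on each side. ES9S, which caps h39 in the head, had the largest flexible share of the regions placed here. It was 12 of 48 (25%), against 5.21% of the 3′ major domain. In the loop of ES9S, C1418 had a signal of 5.6% and C1423 of 7.3%, with 5 lower but flexible nucleotides around and between them. The purines between these cytidines were lower, with 2.0% at G1420, 1.9% at A1421 and 1.6% at G1422. In h40 U1462 and U1463, within a UUCA sequence closed by complementary strands, had 3.4% and 4.2%. The region labelled h41, G1515 to A1580, had 5 flexible positions of 66 (7.58%, against 5.21% of the domain). They were led by A1522 (3.0%) and U1555 (2.8%). This label is uncertain at its 5′ end, and A1522 may lie outside h41. The stretch labelled h42, U1586 to G1612, had 1 flexible position of 27 (3.70%, against 5.21% of the domain). That was A1601, with 4.5% ± 0.046 under 2A3 and 0% under DMSO. The label is uncertain, and A1601 may belong to another helix.

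Single nucleotides of the head that are known for a modification or a place near the tRNA are given next by their values. In h31, whose loop lies at the P site, 1 of 24 positions was flexible (4.17%, against 5.21% in the 3′ major domain), C1247 at 1.25%. U1248 beside it, a hypermodified pseudouridine, had events in 52.0% of 2A3 and 54.2% of DMSO reads in set 1, and in 50.8% and 50.9% in set 2. No flexibility can be read there, since the DMSO value was as high as that with 2A3. C1337 of h34, an acetylated cytidine, had 0.4% under 2A3 and 0.2% under DMSO. G1639, a 7-methylguanosine that borders the P-site tRNA, had 0.3% and 0.2%. The stretch labelled h43 here, A1620 to A1650, had no flexible position among 31, against 5.21% of the 3′ major domain. Its highest signal was at G1636, 0.4%. The label is uncertain, since the stretch also contains G1639, and it may not match h43.

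In the 3′ minor domain the long helix h44, which makes up nearly all of its measured positions, had 8 flexible positions of 136. That is 5.88%, against 5.71% of the measured domain and 8.49% of all positions. Of the 8, 5 formed the far end of h44, G1764 to A1768. Signals there were 2.4% at G1764, 2.9% at C1765, 3.9% at C1766 and 4.0% at A1768, with DMSO values between 0.1% and 0.2% at these 4. C1783, on the returning strand, was higher than the end itself, with 8.9% ± 0.064 under 2A3 and 0.1% ± 0.0075 under DMSO. The others were U1721 (2.5%) and A1781 (1.5%). At the base of the helix, the decoding adenosines A1824 and A1825 had 0.2% ± 0.0097 and 0.3% ± 0.012 under 2A3, and 0% under DMSO. C1703, a 2′-O-methylated cytidine of the decoding centre, had 0.4% over a DMSO value of 0.2%, and A1832, an N6-methyladenosine, had 0.2% in both. All 4 were at the DMSO value or at most 3 rounding steps above it.

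The 15 protected runs held 27.4% of positions. They took up 12.4% of the 5′ domain, 32.8% of the central domain, 42.5% of the 3′ major domain and 20.7% of the measured 3′ minor domain. The number of such runs depended on the limit, with 0 at 0.1%, where a single rounding step ends a run, and 25 at 0.3%. The 3 runs printed here show the run that ends in the 5′ strand of h16, the run that contains the 5′ strand of h28, and the run after G1636 that contains G1639.
C503 to G534: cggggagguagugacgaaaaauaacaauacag
A1188 to C1216: aaacuuaaaggaauugacggaagggcacc
A1637 to U1685: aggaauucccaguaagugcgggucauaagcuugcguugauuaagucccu
In these runs the mean signal was 0.0406%, 0.0345% and 0.0204%, and no position exceeded 0.1%. Mean 2A3 reactivity was 0.219%, 0.103% and 0.157%, most of which was also present with DMSO.

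Signal was next set against pairing predicted from the sequence alone. RNAplfold, which averages local folds, gave each position a probability of being unpaired, with no knowledge of the readout, proteins or tertiary contacts. Of 305 positions predicted unpaired (probability of at least 0.8), 39 were flexible, or 12.8%, against 29 of 617 predicted paired (at most 0.2), or 4.70%. The remaining 892 lay between, with 86 flexible. Signals under 0.2% were about as common in every class. Their share was 73.8% of positions predicted unpaired, 75.3% of those between and 76.5% of those predicted paired. In the protected runs, 19.9% of positions were predicted unpaired and 29.6% paired, against 16.8% and 34.01% of all positions. The mean probability was 0.552 at flexible positions and 0.417 over all. It fell to 0.477 and 0.465 at the nucleotides before and after a flexible one and to 0.353 and 0.358 at a distance of 3, so it was highest at the flexible nucleotide itself.

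The nucleotides differed in how far they followed the prediction. Unpaired cytidines were flexible at 13 of 49 positions (26.5%) and paired ones at 7 of 201 (3.48%). For guanosines the shares were 17.5% and 3.62%, and for uridines 17.9% and 6.93%. Adenosines did not follow it, with 9 of 160 unpaired positions flexible (5.63%) and 5 of 39 paired ones (12.8%). The paired count is small, so a reversed order for adenosines is not established. Adenosines made up 160 of the 305 positions predicted unpaired. Of these 160, 134 (83.75%) had a signal under 0.2%, against 26 of the 39 paired adenosines (66.7%).

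**Figure D5:**
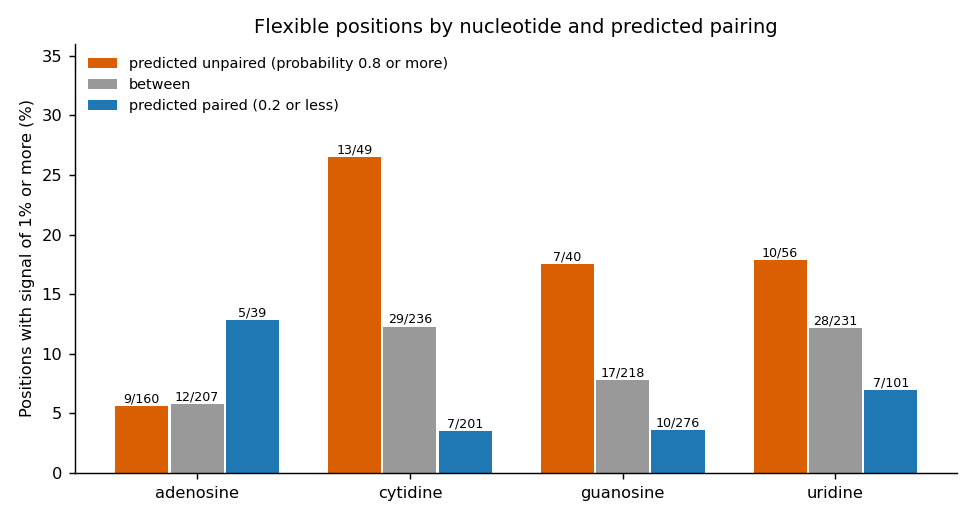
Share of positions with a signal of 1% or more (vertical axis, percent) for each nucleotide, by predicted pairing; numbers over bars are flexible and all positions of the class. Unpaired cytidines reach 26.5% and paired ones 3.48%, whereas unpaired adenosines stay at 5.63%.

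Over all positions uridines had the highest mean signal, 0.576%, followed by cytidines with 0.407%, adenosines with 0.318% and guanosines with 0.3004%. Flexible shares followed the same order, at 11.6%, 10.1%, 6.40% and 6.37%. The lead of uridines was a feature of the 5′ and central parts. In primer set 3 the uridine and cytidine means were 0.935% and 0.511% and in set 2 they were 0.620% and 0.370%, but in set 1 they were 0.180% and 0.303%. The medians of uridines and cytidines were both 0.1%, so the difference lay in the high values. Adenosines and guanosines could not be ordered. Their ratio of means was 1.06, and it turned to 0.953 without the DMSO subtraction and to 0.894 without primer set 3.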

How the data were processed

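The libraries came from cells probed with 2A3 or DMSO and were read by nanopore sequencing of 18S rRNA amplicons, as the labels state. The submitters' processing notes name Bowtie2 and SAMtools and no version. Not given in the sources used here: their settings, the reference build and the type of event scored. Reactivity, as deposited, is the fraction of reads scored at a position, which the authors rounded. The deposited coverage gives the depth per position, and only positions with coverage above 0 were used. Errors are the authors' own; they match the square root of reactivity divided by depth and read 0 where reactivity does. For primer sets 1 and 3 the authors' deposited difference between 2A3 and DMSO equalled the computed signal at all 686 and 791 positions.

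Signals in percent of reads were averaged over the primer sets that cover a position, unscaled. A flexible position also had to exceed 1.96 times its counting error. Flexible positions with at most 3 others between them were joined to stretches of at least 3, which gave 20 stretches. RNAplfold 2.7.2 used a window of 150 and a span of 100 on the files' reference letters. The calls of flexible positions, stretches and runs were tried on simulated data whose signals lay well away from the threshold. Signals near the threshold, pairing, regions and overlaps were not simulated. Landmarks, lists, members and thresholds were chosen with earlier results of these data known. Nucleotides named were the 5 highest of each primer set, the highest of each stretch or region described and a list of landmarks. Other nucleotides, and the regions labelled h40 and h42, were added after their values were seen. Python 3.11.15, numpy 2.4.6, pandas 2.3.3, scipy 1.17.1 and matplotlib 3.10.9 were used. The knockdown libraries were not used here.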

Additional observations from a re-analysis of the deposited data

How the results depend on the processing

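No paired analysis was possible because each comparison holds 1 library a side. Deposited values carry steps of 0.1%, which limits what low signals can show. The number of flexible positions was 86 without primer set 3, 233 at a threshold of 0.5% and 99 at 2%, and the number of flexible stretches was 13 at 2%. Protected runs numbered 0 without the DMSO subtraction, 0 at a limit of 0.1%, 25 at 0.3% and 25 with runs of 15 positions. The ratio of uridine to cytidine means was 1.302 without the subtraction, 1.186 with each primer set scaled, 1.439 without the ends of the amplicons, 1.756, 1.376 and 1.156 without primer sets 1, 2 and 3, and 1.0 for medians. The ratio of adenosine to guanosine means was 0.9525 without the subtraction, 1.037 when scaled, 1.0, 1.141 and 0.8936 without sets 1, 2 and 3, and 0 for medians. At 0.5% the flexible share was 17.05% of predicted unpaired and 8.914% of predicted paired positions, and at 2% it was 8.197% and 2.755%. Scaling gave shares of 8.346% in the 5′ domain and 7.615% in the 3′ major domain. At 0.5% the 5′, central and 3′ major shares were 15.59%, 15.37% and 7.615%, and at 2% they were 7.402%, 5.556% and 3.206%. The ratio in the overlap of sets 2 and 3 was 0.5059 when scaled. That of sets 1 and 2 was 0.9659 without the subtraction, 0.8056 with U1248 kept and 1.923 when scaled. The causes were not tested.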

Other observations

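G60 had events in 94.5% ± 0.22 of 2A3 reads and 95.4% ± 0.17 of DMSO reads, so the event was as frequent without the reagent. At 2 other positions the DMSO value exceeded the 2A3 value by 0.4% of reads, which was the lowest signal apart from the positions set aside. C1582 had 1.8% with 2A3 and 2.2% with DMSO, and C1103 had 1.2% and 1.6%.

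Of the 154 flexible positions, 104 lay in the 20 stretches and 24 had no other flexible position within 4 nucleotides. Strong signals of that isolated kind were U969, G1348 and A555. Flexible shares also differed with the neighbour on the 5′ side. They were 11.7% after a cytidine, 9.30% after a uridine, 7.29% after a guanosine and 5.42% after an adenosine. Clusters of flexible positions share neighbours, so these shares are descriptions only.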
